A study of Peromyscus maniculatus with 6 samples.

Results

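The genes described here make cholesterol and fatty acids or regulate that synthesis, and they were followed in deer mouse ear fibroblasts put under endoplasmic reticulum (ER) stress. A list of 38 symbols was matched, ignoring case, to the gene names of the deposited count table. It found 31 rows of the table's 24281, and all 31 passed the filter on low counts. They comprise 4 regulators of the SREBP transcription factors, 6 enzymes of the mevalonate pathway, 11 enzymes of sterol synthesis, 1 sterol transfer protein and 9 enzymes of fatty acid synthesis. No row carries the names Insig1, Acat2, Fdps, Cyp51a1, Vldlr, Fasn or Scd, and these are not analysed here. For Cyp51a1 and Scd the table holds the symbols Cyp51, Scd1 and Scd2, which were on the list too.

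Fibroblasts were grown and passaged from the ear punches of 3 animals of Peromyscus maniculatus, the deer mouse, all of the BW stock and 4 weeks old. The cultures are named here by animal as BW35770, BW35772 and BW35773. Each culture gave 1 control library and 1 library from cells treated with tunicamycin for 5 h, so that n = 3 animals in each group and each treated library has a control from the same animal. The tunicamycin concentration appears in the labels as 5 mg per mL and was not checked here, and the sources used here do not say what control wells received. Tunicamycin stops cells from building the sugar chains that are attached to new proteins in the ER, and proteins without them accumulate unfolded. No genetic change is named for the animals in either group.

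Cells sense sterols in the ER membrane. The precursors of the SREBP factors, encoded by Srebf1 and Srebf2, are held there with their escort Scap by the Insig proteins while sterols are plentiful. When sterols run low, the Scap and SREBP complex travels to the Golgi, where proteases release the active factor, which raises the transcription of mevalonate, sterol and fatty acid genes. The mevalonate pathway builds isoprenoids from acetyl-CoA, the sterol branch joins them into squalene and lanosterol and trims these to cholesterol, and the fatty acid branch builds, lengthens and desaturates acyl chains. SREBP activation and the unfolded protein response both start in the ER membrane, which is why lipid genes are often examined under ER stress.

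Libraries held 37852385 to 49352126 counts on genes, and the 31 genes took 0.138 to 0.163% of each. The treatment was visible in the unfolded protein response. All 7 genes listed as a check rose by at least 2.66-fold, among them Hspa5, the ER chaperone BiP, whose log2 fold change, tunicamycin over control, was 1.47 with an SE of 0.16 (edgeR adjusted p = 0.00512). Hspa5 missed the threshold when the control library of BW35773 was left out (edgeR adjusted p = 0.0561) and in a paired fit without animal BW35770 (0.0577). Of the fibroblast markers 9 of 10 were named in the table, all with a mean above 1 CPM (counts scaled to the library's TMM-adjusted size). They summed to 15350 to 21540 CPM in controls and 15790 to 20730 CPM in treated libraries, with Vim the largest in every library (7494 to 9763 CPM). Controls of BW35770, BW35772 and BW35773 differed in Thy1 (751.8, 85.2 and 118 CPM) and Col3a1 (499.9, 1469 and 1482 CPM). Cartilage markers (9 of 10 named) were also abundant, at 1899 CPM in the control of BW35770 and 8481 and 7260 CPM in the other controls. Sums over the fat cell markers (7 of 9 named, 3 of these under 1 CPM) were 222.1, 79.6 and 97.1 CPM in controls in the order of animals BW35770, BW35772 and BW35773. Among sebocyte markers 6 of 7 were under 1 CPM, Krt79 at 0 in every library. The sebocyte sum, nearly all of it Soat1, was 41.2 to 61.7 CPM in controls and 55.4 to 103.3 CPM in treated libraries. Soat1 is also among the further sterol pathway genes described below. It was not called with or without the animal as a block (edgeR adjusted p = 0.0985 and 0.271). Keratinocyte, endothelial and immune markers were under 1 CPM for 5 of 6, 4 of 5 and 5 of 6 named genes, with Krt1, Tie1 and Cd3e at 0 in every library. The markers with a mean above 1 CPM, Krt14, Pecam1 and Cd68, were each lower with tunicamycin in all 3 pairs, as were 21.7% of all tested genes. Pecam1 was itself under 1 CPM in the treated libraries of BW35772 and BW35773 (0.785 and 0.848). Of the markers under 1 CPM, Adgre1 (immune) was higher in all 3 pairs, and Krt10 (keratinocyte) and Kdr (endothelial) differed in direction between pairs. The keratinocyte sum, nearly all of it Krt14, was 4.78, 9.40 and 23.0 CPM in controls and 2.65, 4.12 and 13.1 CPM with treatment. Krt14 was not called without the block (edgeR adjusted p = 0.622) and was called lower with it, at -1.04 on the log2 scale (edgeR adjusted p = 0.02). The immune sum, nearly all of it Cd68, was 176.1, 122.4 and 87.3 CPM in controls and 154.1, 70.0 and 69.5 CPM with treatment, and Cd68 was not called with or without the block (edgeR adjusted p = 0.132 and 0.717). The endothelial sum was 1.37 to 4.68 CPM in controls and 0.873 to 4.01 CPM with treatment. The part of these cell types in the lipid gene levels was not tested. In a principal component analysis the ends of PC1 (33.9% of the variance) were the treated library of BW35772 (-52.4) and the control of BW35770 (46.7). On PC2 (29.5%) the treated libraries of BW35770 (-45.1) and BW35772 (-30.7) lay below the controls (1.6 to 31.1), and that of BW35773 (13) lay among them. On PC3 (21.4%) the treated library of BW35773 was lowest (-51.3). As different libraries lay at the ends, calls are given below also without single libraries.

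After 5 h of tunicamycin few of the sterol and fatty acid synthesis genes differed from control beyond the spread between cultures. Of the 31 genes 1 rose, Mvd, and 0 fell (edgeR quasi-likelihood test, adjusted p under 0.05 over 13503 tested genes). Of all tested genes 1.78% rose and 0.792% fell, and 2.58% were called either way, so 1 of 31 is close to the background. The same counts, 1 and 0, came from the fit with the animal as a block, where 3.07% of all genes rose, 2.4% fell and 5.47% were called either way. They also came from DESeq2 and limma-voom. DESeq2 called more of all tested genes in each direction than either edgeR fit, and the limma-voom share is not given here. With no adjustment and p under 0.05 in edgeR, 2 were higher (Mvd and Hmgcs1) and 2 lower (Insig2 and Nsdhl), against 8.88% and 6.64% of all genes. The median log2 fold change of the 31 genes was -0.09, beside -0.01 over all tested genes.

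The 95% intervals show how precisely each change was estimated. They are per gene and not adjusted for the number of genes tested, so they do not give the smallest change that would be called. Insig2, for example, had an interval of -0.84 to -0.16 and was not called. The 95% interval of the log2 fold change lay between -1 and 1, that is within 2-fold either way, for 23 of the 31 genes, and for 25 with the animal as a block. Its half-width had a median of 0.375 and ran from 0.235 for Elovl5 to 1.81 for Tm7sf2. Values under 0.5 in size were found for 28 of 31 members and 80.7% of all tested genes. In 3 members (Hmgcs1, Mvd and Dhcr7) every treated library was above every control and in 3 (Insig2, Nsdhl and Acss2) every treated library was below, against 12.3% and 9.98% of all tested genes. As the groups are bulk cultures, fewer cells of a type and less RNA per cell cannot be told apart.

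**Figure D1:**
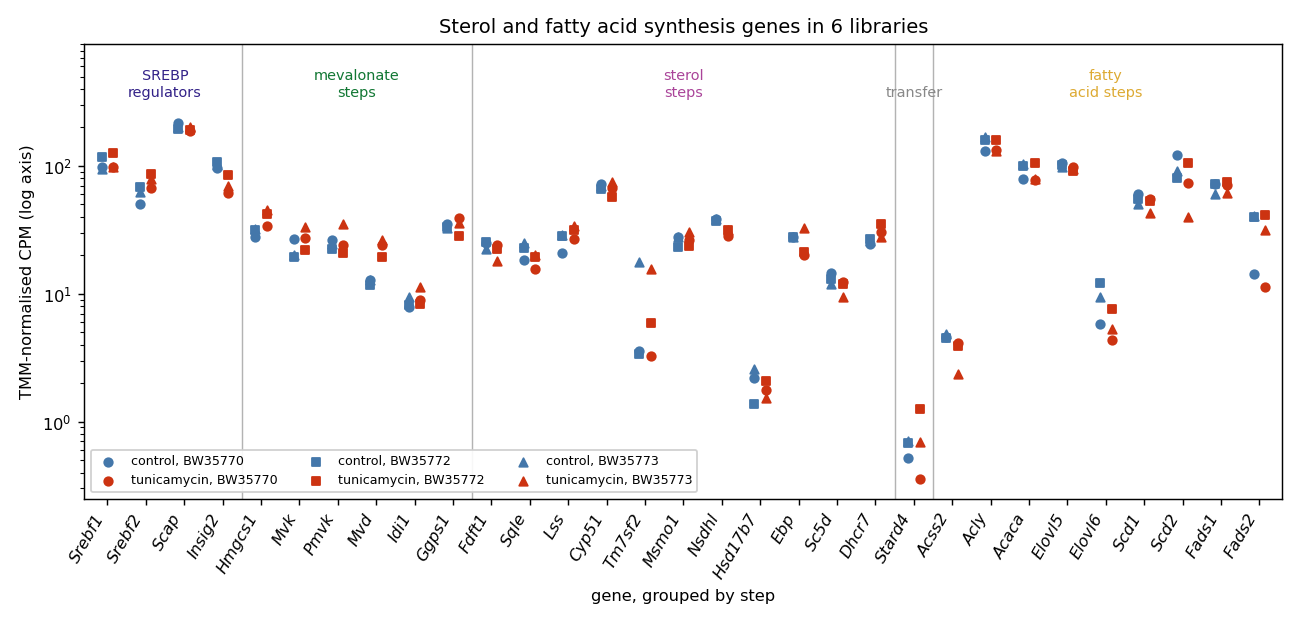
Level of each of the 31 genes in every library, as TMM-normalised CPM on a log axis (blue, control; red, tunicamycin; marker shape, animal), grouped by step. The red and blue ranges overlap for 25 of the 31 genes; Mvd is a gene whose 3 treated values (19.5 to 26.2 CPM) all lie above the controls (11.6 to 12.9 CPM).

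**Figure D2:**
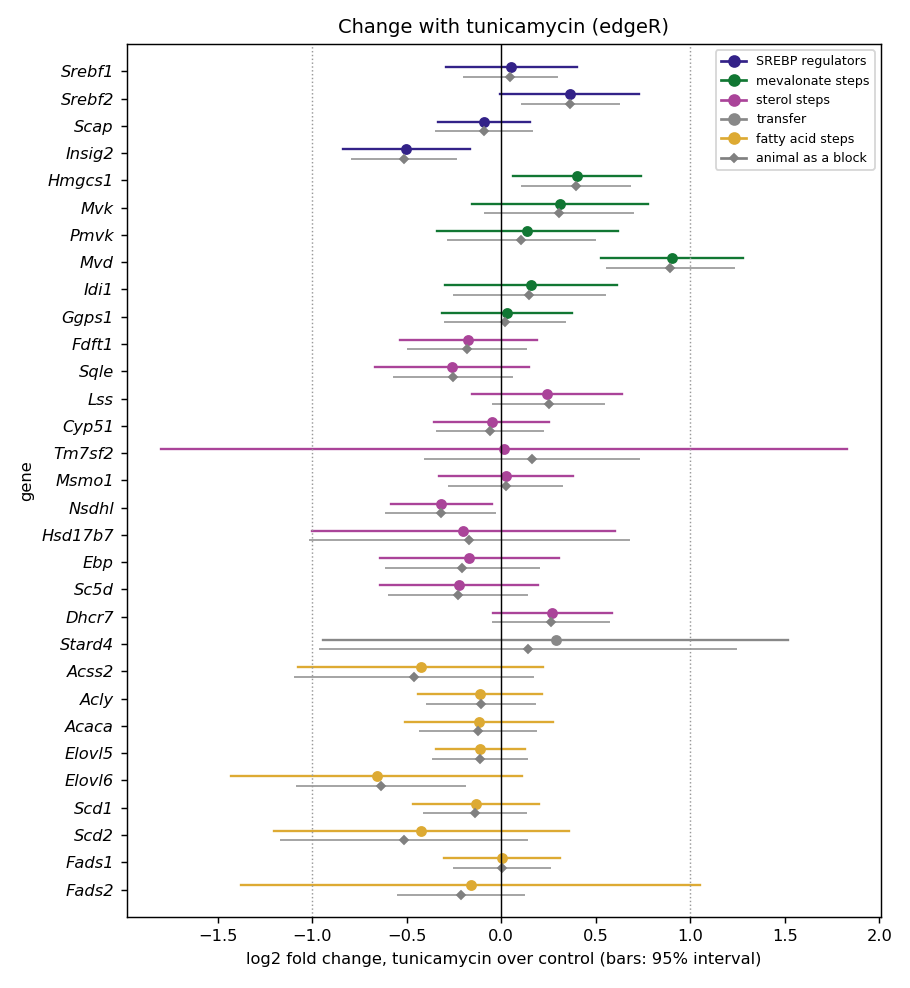
Log2 fold change of each gene, tunicamycin over control, with its 95% interval from edgeR (colours by step; grey diamonds, the fit with the animal as a block; dotted lines, 2-fold either way). Mvd has the highest value, 0.90, and its interval lies above 0, while most intervals include 0.

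The mevalonate pathway held the gene that rose. Mvd encodes mevalonate diphosphate decarboxylase, which makes isopentenyl diphosphate, the isoprenoid unit from which sterols are built (ENSPEMG00000018457, scaffold KI615644.1, bases 234656 to 245866, minus strand, 10 exon entries in the table). In the order of animals BW35770, BW35772 and BW35773 it stood at 12.8, 11.6 and 12.9 CPM in controls and at 24.1, 19.5 and 26.2 CPM with tunicamycin. The controls lay close together and every treated library was above all of them. Its mean was 12.45 ± 0.717 CPM in controls and 23.3 ± 3.39 CPM with treatment (SD, n = 3). Its log2 fold change (called log2 ratio from here on, ± its SE) was 0.90 ± 0.16, or 1.87-fold (edgeR adjusted p = 0.0339, and 0.0164 with the replicate block). The rise within the pairs was 0.91, 0.75 and 1.02 on the log2 scale. With a control library left out (BW35770, BW35772 and BW35773 in turn), or the treated library of BW35770, the call was lost in fits that did not pair the animals (edgeR adjusted p = 0.119, 0.158, 0.159 and 0.119), while the log2 ratio stayed between 0.83 and 1.03 with any library left out. In paired fits it was lost without animal BW35770 (0.239) and held without BW35772 (0.000757) or BW35773 (0.0192).

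Hmgcs1, the cytosolic HMG-CoA synthase that starts the pathway's committed part, was the other mevalonate gene whose groups did not overlap (scaffold KI615745.1, bases 197146 to 216178). It stood at 28, 31.7 and 32.2 CPM in controls and 34.2, 42.1 and 45.3 CPM with tunicamycin. All 3 treated libraries lay above the controls, by 0.29, 0.41 and 0.49 within the pairs on the log2 scale. The log2 ratio of 0.40 ± 0.15 was not called (edgeR adjusted p = 0.236, and 0.118 with the replicate block), and its 95% interval ran from 0.06 to 0.74.

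Mvk and Pmvk varied between pairs. Mvk, mevalonate kinase, had 27.0, 19.5 and 20.1 CPM in controls and 27.4, 22.1 and 33.2 CPM in treated libraries, so that the difference lay mostly in animal BW35773 (0.72 on the log2 scale, against 0.02 and 0.18). Pmvk, the phosphomevalonate kinase that acts next, showed the same animal apart, with a difference of 0.52 in BW35773 and of -0.11 and -0.09 in the others. Idi1, which interconverts the isoprenoid units, and Ggps1, which makes geranylgeranyl diphosphate for protein prenylation, had log2 ratios of 0.16 ± 0.20 and 0.03 ± 0.15. None of these 4 was called (edgeR adjusted p of 0.545 to 0.958). The log2 ratios of all 6 mevalonate genes were above 0, as were those of 6554 of the 13503 tested genes, and their median was 0.23. For Pmvk (0.14 ± 0.21), Idi1 and Ggps1 the log2 ratio was smaller than its SE. Of the 6 genes 4 were higher in all 3 pairs, against 20.7% of all tested genes. With single treated libraries left out, Pmvk (-0.08 without BW35773) and Ggps1 (-0.07 without BW35770) lay on the other side of 0. The summed level of the 6 genes was 15.3%, 11.6% and 41.8% above the control in animals BW35770, BW35772 and BW35773. In BW35770 and BW35772 the largest gains in CPM were those of Mvd and Hmgcs1. In BW35772 Mvk and Idi1 were slightly higher (19.5 to 22.1 and 8.19 to 8.35 CPM). Pmvk and Ggps1 were lower there (22.3 to 20.9 and 33.4 to 28.4 CPM). The sum thus does not show a rise shared by all 6 genes in each animal.

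Among the regulators of SREBP processing 0 of 4 were called, with or without the animal as a block. Before adjustment, 0 were higher and 1 lower at p under 0.05 in edgeR. Srebf2, whose product favours cholesterol genes, stood at 50.6, 68.7 and 62.1 CPM in controls and 66.8, 87.2 and 79.2 CPM with treatment. The groups overlapped and animals differed in level, while the differences within pairs were nearly alike, at 0.40, 0.34 and 0.35 on the log2 scale. The log2 ratio was 0.36 ± 0.16 (edgeR adjusted p = 0.326) and 0.37 ± 0.11 with the replicate block (0.109), with a blocked 95% interval of 0.11 to 0.62. Srebf1, whose product favours fatty acid genes, stood at 98.0, 116.9 and 95.3 CPM in controls and 98.0, 126.6 and 97.4 CPM in treated libraries. Its differences within pairs, 0.00, 0.11 and 0.03, were small, and its log2 ratio was 0.05 ± 0.15 (edgeR adjusted p = 0.924).

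Insig2, a retention protein that holds Scap in the ER, was the regulator with the largest difference (scaffold KI615469.1, bases 1527665 to 1552661). Controls had 96.9, 108.1 and 101.1 CPM, and treated libraries 60.9, 85.3 and 69.9 CPM. Each treated value was below all controls, with differences of -0.67, -0.34 and -0.53 on the log2 scale within the pairs. The log2 ratio of -0.50 ± 0.14 was not called (edgeR adjusted p = 0.142), and with the replicate block it was -0.51 ± 0.12 (0.052, just above the threshold). In paired fits without animal BW35772 or BW35773 it was called lower (edgeR adjusted p = 0.0259 and 0.046), and without BW35770 it was not (0.557). With a single library left out Insig2 was called in 0 of 6 fits (edgeR adjusted p of 0.07 to 0.532). Scap, the escort itself, had 216.4, 196.1 and 201.4 CPM in controls and 186.1, 189.6 and 200.1 CPM with tunicamycin, a log2 ratio of -0.09 ± 0.10 (edgeR adjusted p = 0.777).

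**Figure D3:**
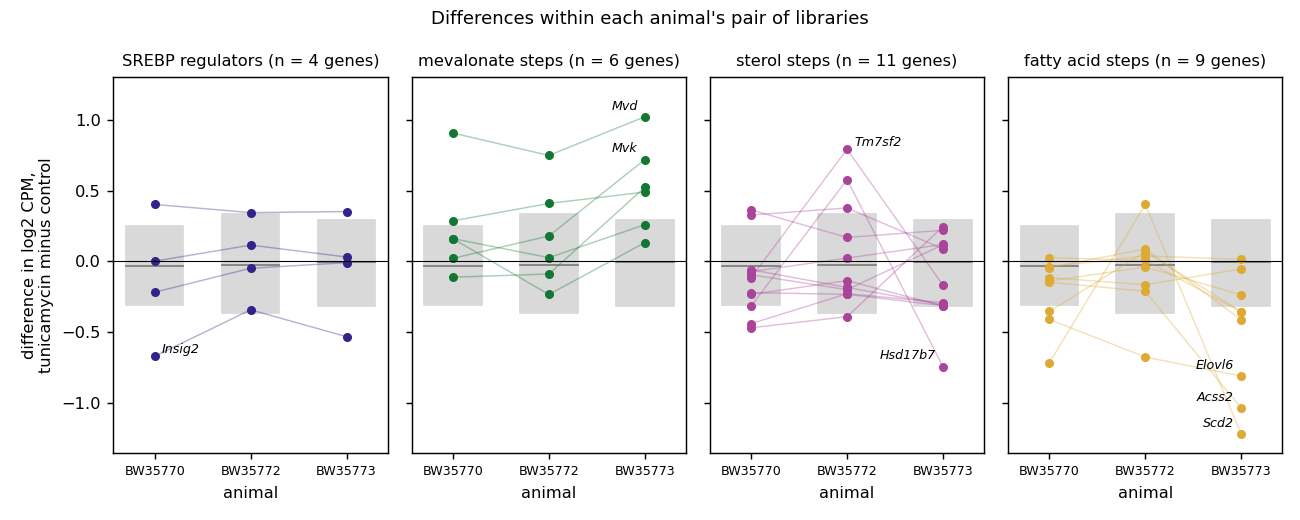
Difference in log2 CPM within each animal's pair of libraries, tunicamycin minus control, by step (points, genes; thin lines join the same gene across animals, which have no order; grey boxes, the middle 50% of all tested genes with their median). The 6 mevalonate genes lie mostly above 0, and the lowest fatty acid values, down to -1.22 for Scd2, belong to animal BW35773.

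In the sterol branch 0 of 11 genes were called in edgeR, also with the animal as a block. Before adjustment, 0 were higher and 1 lower at p under 0.05. The median log2 ratio was -0.17, with 4 values above and 7 below 0. Sqle, squalene epoxidase, a rate-limiting enzyme that adds the first oxygen, had 18.3, 22.9 and 25 CPM in controls and 15.7, 19.4 and 20.1 CPM with tunicamycin. It was lower in all 3 pairs while the groups overlapped, with a log2 ratio of -0.26 ± 0.17 (edgeR adjusted p = 0.564). Fdft1, the squalene synthase that acts just before it, had a log2 ratio of -0.17 ± 0.16, and Lss, the lanosterol synthase just after it, 0.24 ± 0.17.

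Nsdhl and Dhcr7 were the sterol genes whose groups did not overlap, and they differed in direction. Nsdhl, a decarboxylating dehydrogenase that helps to remove methyl groups from the sterol ring, had 38.3, 37.1 and 38.5 CPM in controls and 28.2, 31.7 and 31.5 CPM with treatment. The controls were almost equal and each treated library lay below them, and the log2 ratio was -0.32 ± 0.11, without a call (edgeR adjusted p = 0.234). Dhcr7, the reductase of the last step to cholesterol, had 24.4, 26.9 and 26.1 CPM in controls and 30.6, 34.9 and 27.8 CPM with treatment. Its treated libraries lay above the controls, narrowly in animal BW35773, with a log2 ratio of 0.27 ± 0.13 (edgeR adjusted p = 0.402).

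Of the other sterol genes Cyp51, the lanosterol demethylase, and Msmo1, the methylsterol monooxygenase, had log2 ratios of -0.05 ± 0.13 and 0.03 ± 0.15. Ebp, a sterol isomerase, differed between pairs, with -0.47 and -0.39 in animals BW35770 and BW35772 and 0.24 in BW35773 on the log2 scale. Its 3 controls ranged only from 27.7 to 27.8 CPM, and its treated libraries from 20.1 to 32.9 CPM. Sc5d, the desaturase before Dhcr7, was lower in all 3 pairs with a log2 ratio of -0.22 ± 0.18. Hsd17b7, a sterol ketone reductase, was low, with 1.37 to 2.58 CPM over all libraries, and its 95% interval, up to 0.60 at the upper end, just included a 2-fold lower level. The summed level of the 11 genes relative to the control was -6.55% in BW35770, -4.75% in BW35772 and -0.556% in BW35773. Stard4, a cytosolic sterol carrier, was the lowest gene in CPM (0.36 to 1.26 over all libraries, 185 counts in all). Its 95% interval of -0.94 to 1.51 did not exclude a 2-fold rise, and its pairs differed by -0.49, 0.84 and -0.0047 on the log2 scale.

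None of the 9 fatty acid genes was called, in edgeR or with the animal as a block, and before adjustment 0 had p under 0.05 in either direction. Their median log2 ratio was -0.13, with 8 of 9 values below 0, beside 6946 of the 13503 tested genes. In all 3 pairs 4 of 9 were lower, against 21.7% of all tested genes. Acaca, acetyl-CoA carboxylase, which commits carbon to fatty acids, had 79.7, 99.3 and 104.4 CPM in controls and 77.4, 105.4 and 78.4 CPM with tunicamycin. The treated library of BW35773 stood below its control by a log2 difference of -0.41, against -0.04 and 0.09 in the others, and the log2 ratio was -0.12 ± 0.17 (edgeR adjusted p = 0.84). Acly, the ATP citrate lyase that supplies acetyl-CoA, showed the same pattern, with differences of 0.03, 0.01 and -0.36 within the pairs. Acss2, which makes acetyl-CoA from acetate, had 4.56, 4.55 and 4.85 CPM in controls and 4.12, 3.92 and 2.34 CPM with treatment. Its treated libraries were all below the controls, and the log2 ratio of -0.43 ± 0.28 was not called (edgeR adjusted p = 0.551). Gss, the glutathione synthetase gene, lies across Acss2 on the opposite strand with 35334 counts over the 6 libraries, so the Acss2 values depend on counting by strand, which only the name of the table states.

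Elovl6, the elongase that lengthens palmitate, had the lowest log2 ratio of the 31 genes, -0.66 ± 0.33, which was not called (edgeR adjusted p = 0.403, and 0.108 with the replicate block). It stood at 5.84, 12.2 and 9.38 CPM in controls and 4.38, 7.64 and 5.34 CPM with treatment. Each animal was lower with treatment, with log2 differences of -0.41, -0.68 and -0.81, although the groups overlapped. Elovl5, which lengthens polyunsaturated chains, differed by -0.11 ± 0.10. The stearoyl-CoA desaturases, which make monounsaturated chains, differed from each other in spread. Scd1 was at 60.7, 54.9 and 50.3 CPM in controls and 55.2, 53.4 and 42.7 CPM with treatment, a log2 ratio of -0.13 ± 0.14. Scd2 was at 121.9, 80.0 and 92.1 CPM in controls and 74.2, 105.7 and 39.5 CPM with treatment.

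For Scd2 the pairs went different ways, by -0.72, 0.40 and -1.22 on the log2 scale, and the log2 ratio of -0.42 ± 0.33 was not called (edgeR adjusted p = 0.645). In a paired fit without animal BW35772 it was called lower, at -0.97 (edgeR adjusted p = 0.000131). Without BW35770 or BW35773 it was not, at -0.41 and -0.13 (edgeR adjusted p = 0.855 and 0.752). Scd1 and Scd2 are close paralogs that lie on the same scaffold, KI615675.1, and the sources used here do not say how reads shared between them were counted. The desaturases of polyunsaturated synthesis, Fads1 and Fads2, had log2 ratios of 0.00 ± 0.13 and -0.16 ± 0.52. The summed level of the fatty acid genes relative to the control was -11.5% in BW35770, 2.99% in BW35772 and -22.5% in BW35773. In the paired fit without animal BW35773 the log2 values of Acly and Acaca were above 0, at 0.04 and 0.05.

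A few members differed in level between animals. Across the 3 controls the highest level was at least 2-fold the lowest for 3 of the 31 genes, Tm7sf2, Fads2 and Elovl6, and for 14.7% of all tested genes. Tm7sf2, a sterol reductase, stood at 3.55 and 3.40 CPM in the controls of BW35770 and BW35772 and at 17.7 CPM in that of BW35773. The treated libraries of these animals had 3.27, 5.91 and 15.7 CPM, so that BW35773 was high under both conditions. Fads2 was low in both libraries of BW35770, at 14.4 and 11.2 CPM, and stood between 31.5 and 41.4 CPM in the others. The sum of cartilage markers was also lowest, and that of fat cell markers highest, in the libraries of BW35770 (2113 and 208.4 CPM with treatment, beside 9025 and 89.8 CPM in BW35772 and 6213 and 90.0 CPM in BW35773). In controls, in the order of animals above, the largest differences were in Col2a1 (742.6, 5999 and 4538 CPM) and Lpl (113.8, 7.87 and 28.8 CPM). Adipoq, Fabp4 and Pparg were also highest in BW35770, by fewer CPM than Lpl (Adipoq at 25.9, 18.0 and 20.3 CPM). The part of these markers in the Fads2 levels was not tested. With the animal as a block, the SE of the log2 ratio went from 0.52 to 0.14 for Fads2 and from 0.78 to 0.24 for Tm7sf2, with no call for either (edgeR adjusted p = 0.457 and 0.759).

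**Figure D4:**
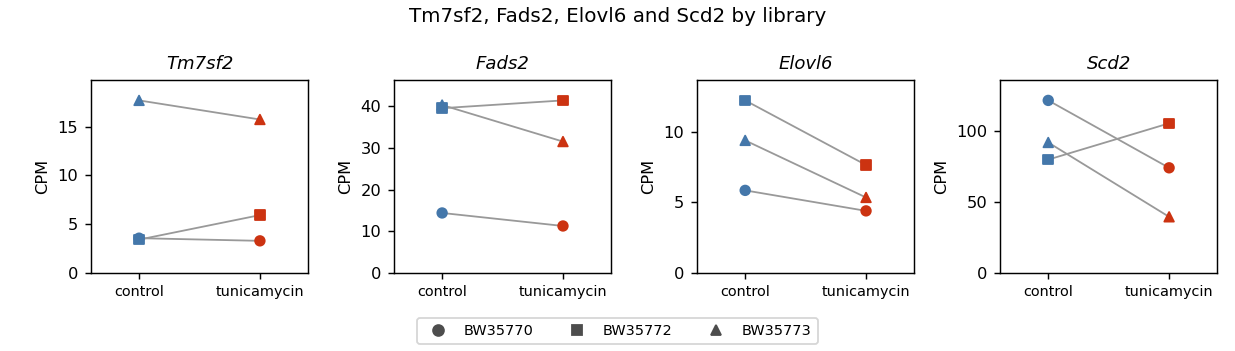
TMM-normalised CPM in control and treated libraries of Tm7sf2, Fads2, Elovl6 and Scd2, with lines joining the libraries of an animal; these 4 genes were chosen after their values were seen. Tm7sf2 is high in both libraries of BW35773 (17.7 and 15.7 CPM), Fads2 is low in both of BW35770, and the lines of Scd2 cross.

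Per length of transcript, the machinery was uneven in the control state. On the scale of RPKM, which is CPM divided by the exon length in kilobases, Scap was the highest of the 31 genes in controls at 49.2 ± 2.54 (SD, n = 3), followed by Scd2 at 46.9 ± 10.3 and Insig2 at 40.4 ± 2.24, and the SD of Scd2 spans both neighbours. The regulators other than Srebf2 (12.1 ± 1.83 RPKM) and 3 fatty acid genes thus filled the first 6 places, with Elovl5 at 36.4 ± 1.52, Acly at 34.1 ± 4.36 and Srebf1 at 25.8 ± 2.94 RPKM. Sterol enzymes ran from 24.4 ± 1.09 RPKM for Cyp51 to 0.70 ± 0.21 for Hsd17b7, the lowest of the 31 genes per length. Mvd was 25th in controls at 6.40 ± 0.37 RPKM and 20th with tunicamycin at 12.0 ± 1.74 RPKM, next to Hmgcs1 at 12.1 ± 1.71 RPKM, a level that did not differ beyond their spread.

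A further 66 genes of the same pathways, listed apart from the 31, were examined for sterol sensing, uptake, efflux and fatty acid supply. Of 62 found by name 56 were tested, 2 rose, 1 fell and 53 were not called, beside the 1.78% and 0.792% of all tested genes, and the median log2 ratio was -0.01. With the animal as a block 3 rose and 1 fell, beside 3.07% and 2.4% of all tested genes. Without the block, 1 rose and 1 fell of 11 tested genes for SREBP and reductase processing. Of 17 tested for sterol synthesis, uptake and transfer 1 rose, and of 22 for fatty acid supply 0 were called. Over all tested genes 2.58% were called either way, and no shared function is read from these 3 calls. None of the 6 LXR and efflux genes was called in either fit, with 0 at p under 0.05 in edgeR before adjustment.

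Paqr3, a Golgi protein known to anchor the Scap and SREBP complex, stood at 5.60, 5.87 and 4.98 CPM in controls and 10.4, 12.0 and 10.2 CPM with tunicamycin. Every treated library was near 2-fold the controls, a log2 ratio of 0.99 ± 0.18 (edgeR adjusted p = 0.0371). Paqr3 lies on scaffold KI615377.1, bases 814200 to 840543. Osbp, which exchanges cholesterol and phosphoinositide between ER and Golgi, went from 126.0, 125.9 and 121.0 CPM to 184.8, 203.9 and 198.9 CPM. The groups were well apart, with a log2 ratio of 0.66 ± 0.10 (edgeR adjusted p = 0.0211). Osbp lies on scaffold KI616454.1, bases 123464 to 157188. Rnf145, a membrane ubiquitin ligase that acts on Scap, went from 53.1, 55.9 and 54.3 CPM to 28.2, 36.7 and 28.9 CPM. All treated libraries were below the controls, with a log2 ratio of -0.80 ± 0.14 (edgeR adjusted p = 0.0311). Rnf145 lies on scaffold KI615331.1, bases 174965 to 223053.

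These 3 calls were, like that of Mvd, lost without some single libraries in fits that did not pair the animals. With each control left out in turn, in the order of animals above, the edgeR adjusted p was 0.134, 0.157 and 0.212 for Paqr3, 0.0931, 0.12 and 0.143 for Osbp, and 0.104, 0.2 and 0.15 for Rnf145. Without the treated library of BW35770 it was 0.107, 0.058 and 0.114 in the same order of genes. Paqr3 also lost its call without the treated library of BW35772 (0.0707) and Rnf145 without that of BW35773 (0.052). With the replicate block and all 6 libraries, edgeR gave adjusted p-values of 0.0223 for Paqr3, 0.0172 for Osbp and 0.0155 for Rnf145, and in paired fits all 3 calls were lost without animal BW35770 (0.258, 0.217 and 0.248) and held without either of the others.

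Mid1ip1, which promotes the assembly of acetyl-CoA carboxylase, was called higher only with the animal as a block among the edgeR fits of all 6 libraries. It stood at 17.9, 12.4 and 12.2 CPM in controls and 25.9, 21.5 and 25.3 CPM with tunicamycin, and all treated libraries were above the controls. The log2 ratio was 0.77 ± 0.19 (edgeR adjusted p = 0.0999, and 0.0332 with the replicate block), DESeq2 also called it (0.00516), and in a paired fit without animal BW35770 the call was lost (0.217).

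**Figure D5:**
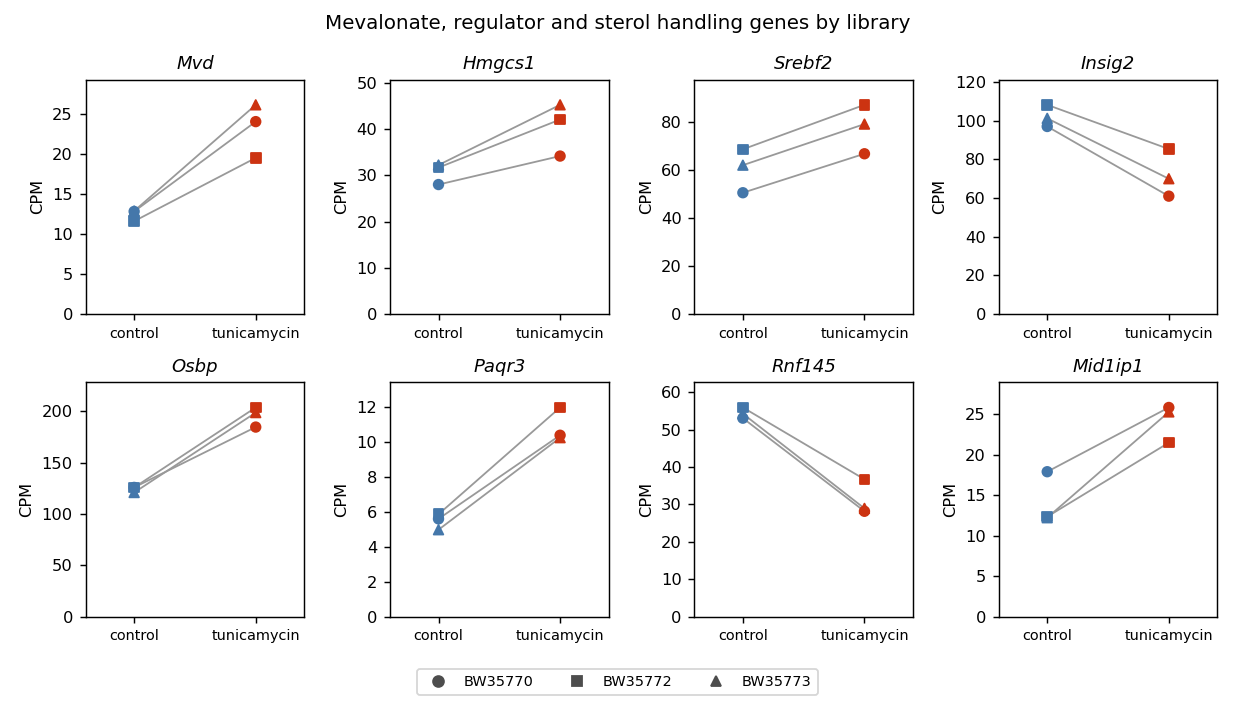
TMM-normalised CPM by library for Mvd, Hmgcs1, Srebf2 and Insig2 (top) and for Osbp, Paqr3, Rnf145 and Mid1ip1 (bottom), with lines joining the control and treated libraries of an animal. These genes were chosen with their values known. All lines of a gene point the same way, and of all tested genes 20.7% were higher and 21.7% lower in all 3 pairs. Mvd, Osbp and Paqr3 rose, Rnf145 fell, and Hmgcs1, Srebf2 and Insig2 were not called.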

How the data were processed

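The authors' deposited table gives raw read counts, whole numbers, for each gene in 1 column per library. The submitters' processing notes name STAR 2.6.1, SAMtools 1.6, featureCounts and Subread. Per the labels' protocols, libraries were directional and paired-end. Not given in the sources used here: genome build, annotation release and treatment of multi-mapping reads. Coordinates and gene names are those of the table.

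The test was that of edgeR 4.0.16 (R 4.3.3): filterByExpr (minimum count 10, minimum total 15; 13503 genes), TMM scaling and the quasi-likelihood test, adjusted by Benjamini-Hochberg over all tested genes (threshold 0.05). SE is the log2 fold change divided by the square root of F, and 95% intervals use edgeR's degrees of freedom. A prior count of 2 enters the log2 CPM of pair differences. Numbers in the titles name the animal, so libraries are paired; deviations from group means correlated at 0.656, 0.408 and 0.217 within the pairs. Alternatives were the replicate block, other scalings and filters, DESeq2 1.42.0, limma-voom (limma 3.58.1), and leaving out libraries or animals. The edgeR steps, with and without the block, were tested on simulated counts. These held no differences between animals, unlike the data, so the handling of pairs was not tested. No library was a copy of another (chi-square per degree of freedom of 33.6 or more). Replicates are the cultures of 3 animals. Without the block, p-values set a change against the spread between cultures. With the block, they set it against the spread of the change between animals. The members, lists and tests were chosen with earlier results of these data known. All 31 members are named, and of the 66 further pathway genes those called in either fit; 2 others of the 66 that were to be named are not reported here.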

Additional observations from a re-analysis of the deposited data

How the results depend on the processing

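Over 16 alternatives Mvd stayed higher, with log2 fold changes of 0.83 to 1.03, and was called in 11. With 1 library left out, members called higher numbered 0 to 1 and members called lower 0, and the members' median log2 fold change ran from -0.07 to -0.03. All genes called higher numbered 46 to 313 and lower 15 to 251. With the replicate block, all genes called numbered 415 higher and 324 lower, and with DESeq2 676 and 401. In replicate block fits without animal BW35770, BW35772 or BW35773, all genes called higher numbered 74, 497 and 806 and lower 37, 451 and 826. Members called higher then numbered 0, 1 and 1, and lower 0, 2 (Insig2 and Scd2) and 1 (Insig2). Without animal BW35773 the members' median was -0.0086. These fits hold fewer libraries, and the cause was not tested further.

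Log2 fold changes of 12 genes, none of them called there, changed sign under some setting. With upper-quartile factors Tm7sf2 went to -0.0022. With 1 library left out, values ran from -0.823 to 1.26 for Tm7sf2, -0.548 to 0.217 for Fads2, -0.076 to 0.103 for Fads1, -0.0714 to 0.167 for Ggps1, -0.126 to 0.0604 for Cyp51, -0.0546 to 0.124 for Msmo1, -0.0837 to 0.301 for Pmvk, -0.0687 to 0.189 for Srebf1 and -0.26 to 0.631 for Stard4. In replicate block fits without animal BW35770, Ggps1 was at -0.0505. Without BW35772, Cyp51 was at 0.011, Tm7sf2 at -0.145, Stard4 at -0.261 and Fads1 at -0.0133. Without BW35773, Pmvk was at -0.0732, Ggps1 at -0.0086, Hsd17b7 at 0.154, Acly at 0.0437 and Acaca at 0.0493.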
